A study of Mus musculus with 16 samples.

Results

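The genes described here are 46 genes of mitosis and of cell cycle control, from the cyclins and kinases that take a cell from G1 into S phase to the kinases, motors and checkpoint proteins of mitosis. They were chosen by symbol from a written list, and all 46 were listed once each among the 36829 features of the files. RNA came from femoral cortical bone of 16 female C57Bl/6J mice aged 11 weeks, whose bone ends had been cut off and whose marrow had been flushed out with buffer before freezing. In the hindlimb unloading (HLU) group 8 mice had their hindlimbs kept off the cage floor for 7 days, and in the Control group 8 mice bore weight normally. Each mouse gave 1 library, and values are taken as RPKM, the reads on a gene scaled to its length and to the reads of the library. Library totals, recovered from the RPKM values, lay between 7067512 and 19708590 reads for Control mice and between 7838277 and 21363584 for HLU mice (exact permutation p = 0.502). The libraries with the fewest reads were Control 2 and HLU 5.

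A cell commits to division in G1, when D-type cyclins with Cdk4 or Cdk6 and then E-type cyclins with Cdk2 phosphorylate the retinoblastoma protein and free E2F factors. Entry into mitosis follows when Cdk1 with A- and B-type cyclins is activated, and the spindle checkpoint delays separation of the chromosomes until every kinetochore is attached. In adult bone, osteocytes do not divide, whereas the erythroid, granulocytic and lymphoid precursors of the marrow divide often.

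All 46 genes passed the filter on low values (mean RPKM 0.5 or more), as did 16973 of all features. Mean RPKM ran from 0.664 for Cdk6 to 160.3 for Mki67, and between 21 and 58420 reads per mouse lay behind a value. The gene lengths behind RPKM differ from the combined exon length in GENCODE M21, from 0.285 times it for Ccnd3 to 2.37 times it for Pttg1, so the order of levels between genes depends on them. Genes are called most abundant by RPKM as deposited. On the GENCODE lengths, an alternative chosen after seeing the data, another gene came first in 5 of the 11 role groups, as given below. Of the 46 genes, 18 share exon bases with another gene in that annotation, and the library kit named in the study's methods does not mark strand, so the values of such genes are uncertain there.

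No gene of the 46 passed the test between the groups. With limma on log2(RPKM + 0.1), which moderates each gene's variance across genes, 0 of 46 were lower in HLU mice at an unadjusted p under 0.05 with at least a 1.2-fold change, against 4.76% of the 16973 features tested (808). Likewise 0 of 46 were higher, against 1.11% of all features (188). At an adjusted p under 0.1, 0 of 46 and 0% of all features were called. At an unadjusted p under 0.05 and any fold, 0 of 46 and 1049 of all features passed, and limma-voom on reads recovered from RPKM called 3 lower (Cdk6, Cdk1 and Bub1), with 5.39% of all features lower in that fit. The lowest adjusted p among the 46 was 0.744. Over all features the split leaned to lower for RPKM as deposited and depended on the scaling. It was 394 lower and 381 higher with median-of-ratios scaling (2.32% of all features lower), and 364 lower and 460 higher with quantile normalization (2.14% lower), with 0 of the 46 called in both.

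The sign was nonetheless shared. The log2 fold change was negative for 45 of 46 genes, against 67.9% of all features, and its median was -0.41, against -0.10 over all features. Bub1 had the lowest, -0.54, and Pttg1 the highest, 0.022. Quantile normalization moved the median of all features by over 0.1, to 0.0010, and relative to it the median of the 46 was -0.29, against -0.30 for RPKM as deposited. With the osteocyte level as a covariate, chosen after seeing the data, the median of the 46 was -0.24, against -0.11 over all features. With the erythroid and granulocyte precursor levels as covariates (marrow covariates) the sign held for 35 of 46 and turned for 10. The median was then -0.12, against -0.030 over all features, or -0.094 relative to it. Under quantile normalization and under median-of-ratios scaling 44 of 46 were negative, since Ccnd1 turned positive. Because the genes vary together between mice, the shared sign is not 46 separate observations. In whole tissue, fewer dividing cells and less of these RNAs per cell cannot be told apart.

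**Figure D1:**
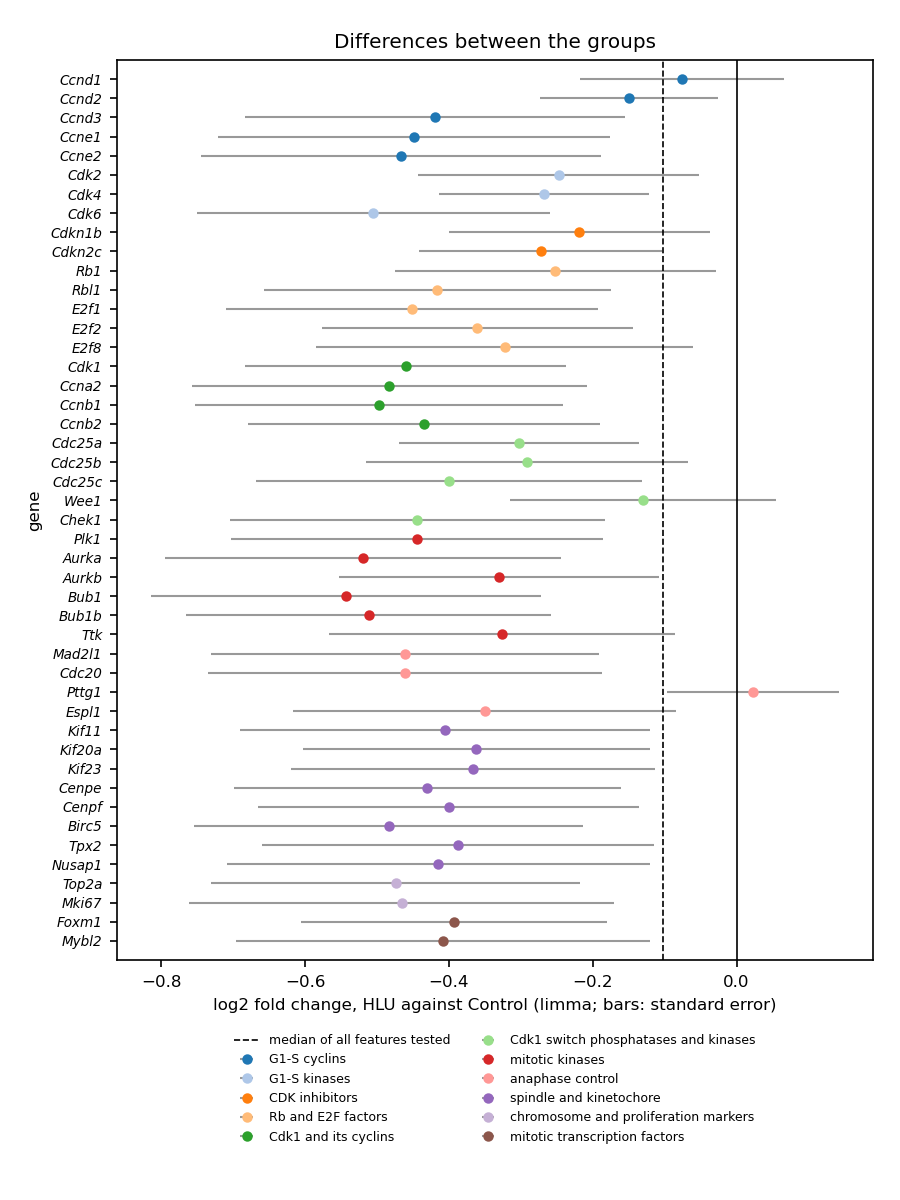
Log2 fold change of each gene between HLU and Control mice (horizontal axis, log2 scale, points with standard error bars from limma), colored by role. Pttg1 alone lies above 0 (with Ccnd1 too under quantile or median-of-ratios scaling), and the dashed line marks the median of all features, -0.10.

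The same few mice lay at the ends of the range for many genes. HLU 7 had the lowest value of the HLU group for 30 of the 46 genes and HLU 4 for 11, whereas HLU 2 had the highest for 27 and HLU 3 for 9. Control 5 was lowest of the Control group for 18 genes and Control 3 for 14, and Control 1 and Control 7 were each highest for 19. The level over all 46 genes, a mean of centred log2 values given as a description, had a lowest, median and highest value of -0.22, 0.20 and 0.54 in Control mice and -0.97, -0.24 and 0.46 in HLU mice. The groups overlapped, and HLU mice had the wider range. Leaving out HLU 2 gave 14 genes lower, with 8.16% of all features lower in that fit, and leaving out HLU 3 gave 12, with 6.89%. Without Control 5 it was 7, with 6.605% of all features. Without Control 3 it was 4 (6.06% of all features), without HLU 8 also 4 (6.81%) and without Control 4 it was 3 (4.58%). Without Control 1 (5.44%), Control 8 (3.58%) or HLU 1 (2.88%) it was 1.

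**Figure D2:**
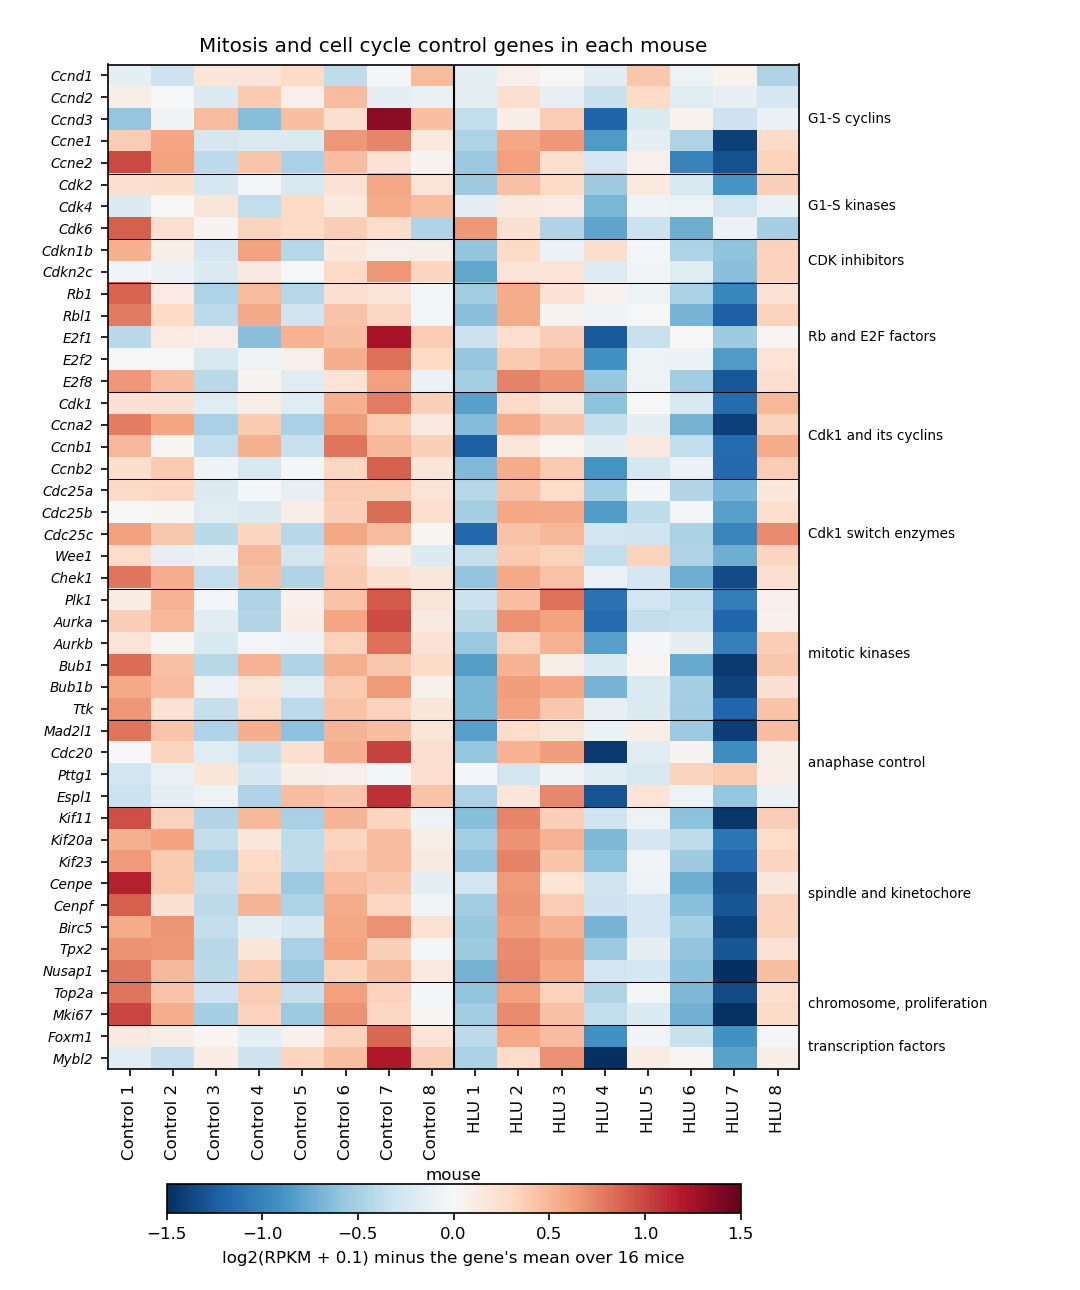
Each of the 46 genes (rows, by role) in each of the 16 mice (columns), as log2(RPKM + 0.1) minus the gene's mean over all mice, from blue (low) to red (high). HLU 7 is blue in most rows, HLU 2 and HLU 3 are mostly red, and Ccnd1, Ccnd2, Cdk6 and Pttg1 follow other mice.

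Among the 5 G1-S cyclins the median log2 fold change was -0.42, with 0 called. Ccnd3 (cyclin D3), a D-type cyclin of blood-forming cells, was the most abundant by RPKM as deposited but not on GENCODE lengths, where its mean was 16.4 against 28.8 for Ccne1 and 25.4 for Ccne2. It had a lowest, median and highest RPKM of 34.0, 67.6 and 135 in Control mice and 23.0, 47.7 and 68.5 in HLU mice. Control 7 stood far above the rest and HLU 4 was lowest, and otherwise the groups overlapped. The difference on the log2 scale was -0.42 (SE 0.26, exact permutation p = 0.162), and it turned to 0.10 with the marrow covariates. For Ccnd1 (cyclin D1), which answers to growth factors, the values were 5.98, 8.27 and 10.9 RPKM in Control mice and 5.62, 7.63 and 10.3 in HLU mice. Control 8 and HLU 5 were highest and HLU 8 lowest, and the groups overlapped, with 7 HLU mice under the Control median. The difference was -0.076 (SE 0.14, exact permutation p = 0.588), positive under the other 2 scalings, and 23.4% of its exon bases lie in a gene on the opposite strand. Ccnd2, the third D-type cyclin, had group medians of 15.5 and 13.8 RPKM. The E-type cyclins, which act later with Cdk2, had log2 fold changes of -0.45 (Ccne1) and -0.47 (Ccne2).

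Of the 3 G1-S kinases, Cdk2, the partner of cyclin E and cyclin A, was the most abundant by RPKM as deposited, but on GENCODE lengths Cdk4 came first (38.6 against 17.4). The lowest, median and highest RPKM of Cdk2 were 35.8, 49.6 and 64.4 in Control mice and 23.2, 42.0 and 58.3 in HLU mice. HLU 7, HLU 1 and HLU 4 lay below every Control mouse, while HLU 2, HLU 8 and HLU 3 lay above the Control median, for a difference of -0.25 (SE 0.20, exact permutation p = 0.241), which turned to 0.018 with the marrow covariates. Cdk4, a partner of the D-type cyclins, spanned 14.9, 21.5 and 28.3 RPKM in Control mice and 11.9, 18.1 and 21.3 in HLU mice. All 8 HLU mice lay below the Control median, but only HLU 4 lay below the lowest Control mouse. The log2 fold change was -0.27 (SE 0.15, exact permutation p = 0.0867), and 19.7% of the exon bases of Cdk4 are shared with Tspan31 on the opposite strand. Cdk6, the other partner of D-type cyclins, had the lowest limma p of the 46 and was chosen after its values were seen. It spanned 0.429, 0.784 and 1.25 RPKM in Control mice and 0.316, 0.453 and 1.04 in HLU mice, down to 21 reads. HLU 4, HLU 6, HLU 8 and HLU 3 lay below every Control mouse and HLU 1 was high. Its log2 fold change was -0.51 (SE 0.25), with an exact permutation p of 0.0378, a limma p of 0.0550 and an adjusted p of 0.744. It was lower at the unadjusted threshold in 7 alternatives, which were voom, no variance trend, the replicate block, the marrow covariates, and leaving out Control 8, HLU 1 or HLU 2.

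The inhibitors and the Rb and E2F factors hold back or carry out the step into S phase, and their log2 fold changes had medians of -0.25 and -0.36, with 0 called. Cdkn1b (p27), an inhibitor of Cdk2 and the more abundant of the 2 inhibitors, spanned 17.6, 25.1 and 36.2 RPKM in Control mice and 15.5, 22.8 and 30.2 in HLU mice. Control 4 and Control 1 were highest, HLU 7, HLU 1 and HLU 6 lay below every Control mouse, and HLU 8, HLU 2 and HLU 4 exceeded the Control median. The difference was -0.22 (SE 0.18, exact permutation p = 0.260). Cdkn2c (p18), an inhibitor of Cdk4 and Cdk6, had group medians of 14.8 and 13.1 RPKM. E2f2, a factor that activates S-phase genes, was the most abundant of 5 Rb and E2F genes, at 23.8, 29.0 and 49.9 RPKM in Control mice and 15.0, 26.7 and 38.9 in HLU mice. Control 7 and Control 6 were highest, while HLU 4, HLU 7 and HLU 1 lay below every Control mouse. Its log2 fold change was -0.36 (SE 0.22, exact permutation p = 0.136) and turned to 0.043 with the marrow covariates. The other 4 genes of the group lay between -0.45 (E2f1, positive with those covariates) and -0.25 (Rb1).

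**Figure D3:**
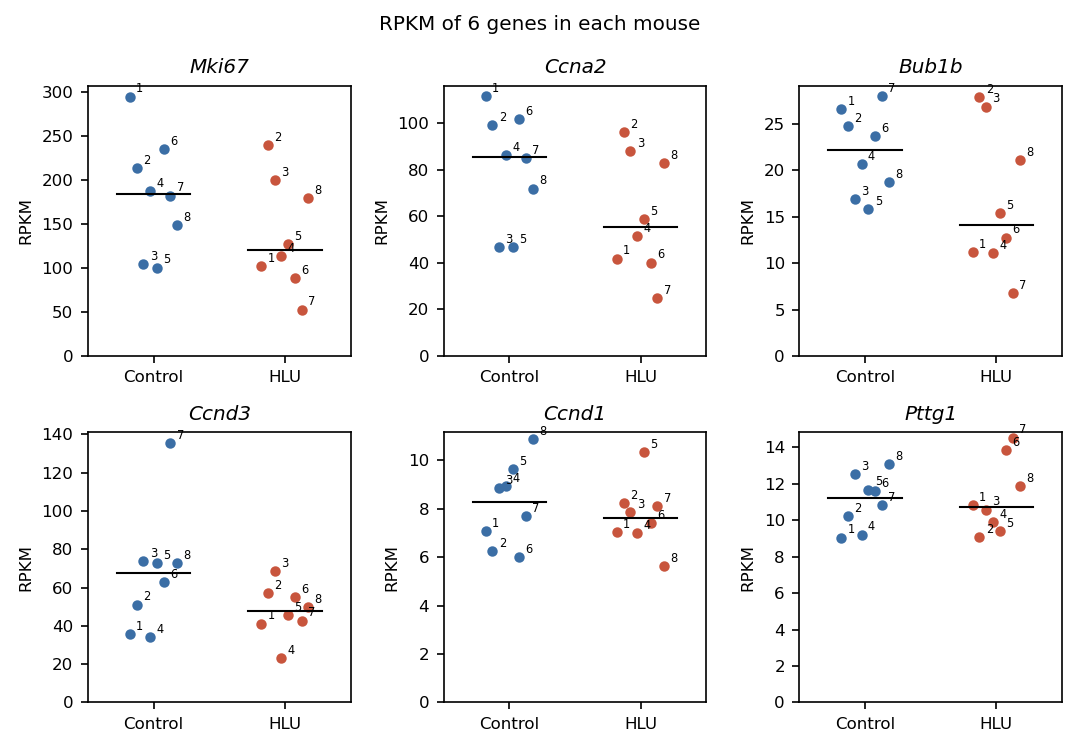
RPKM (vertical axes, starting at 0) of 6 genes in each Control and HLU mouse, with mouse numbers beside the points and bars at the group medians. The groups overlap for all 6, and HLU 7 is lowest of its group for Mki67, Ccna2 and Bub1b but highest for Pttg1.

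Cdk1 and its cyclins drive entry into mitosis, and their 4 log2 fold changes had a median of -0.47. Cdk1, the mitotic kinase itself, spanned 22.5, 30.0 and 43.6 RPKM in Control mice and 11.5, 23.6 and 36.4 in HLU mice. HLU 7, HLU 1, HLU 4 and HLU 6 lay below every Control mouse, and of the Control mice Control 6 and Control 7 alone exceeded HLU 8. The difference was -0.46 (SE 0.22, exact permutation p = 0.0727). Ccna2 (cyclin A2), which acts in S phase and G2, was the most abundant, with 46.6, 85.6 and 112 RPKM in Control mice and 24.8, 55.2 and 96.0 in HLU mice. Control 3 and Control 5 lay below the HLU median, and HLU 2 and HLU 3 lay above the Control median. Its log2 fold change was -0.48 (SE 0.27, exact permutation p = 0.123), and 12.5% of its exon bases are shared with Exosc9 on the opposite strand. Ccnb1 (cyclin B1), whose breakdown ends mitosis, spanned 6.75, 11.8 and 15.4 RPKM in Control mice and 3.71, 8.48 and 13.0 in HLU mice. HLU 1 and HLU 7 lay below every Control mouse and HLU 8 was highest of the HLU group. The difference was -0.50 (SE 0.26, exact permutation p = 0.0931). Ccnb2, a further B-type cyclin, had group medians of 76.7 and 58.1 RPKM.

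The phosphatases and kinases that switch Cdk1 on and off had a median log2 fold change of -0.30 over 5 genes. Cdc25b, a phosphatase that activates Cdk1, was the most abundant, at 18.8, 23.0 and 39.3 RPKM in Control mice and 12.2, 19.2 and 32.9 in HLU mice. Control 7 stood apart at the top, and HLU 4, HLU 7, HLU 1 and HLU 5 lay below every Control mouse. The difference was -0.29 (SE 0.22, exact permutation p = 0.235), and 0.14 with the marrow covariates. Wee1, the kinase that opposes the Cdc25 phosphatases, had the smallest difference of the group, -0.13.

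The 6 mitotic kinases had a median log2 fold change of -0.48, with 0 called. Bub1b (BubR1), a spindle checkpoint protein, was the most abundant by RPKM as deposited (on GENCODE lengths Aurka, 27.1 against 24.1), with 15.8, 22.2 and 28.0 RPKM in Control mice and 6.79, 14.1 and 27.9 in HLU mice. HLU 7, HLU 4, HLU 1, HLU 6 and HLU 5 lay below every Control mouse, whereas HLU 2 and HLU 3 reached the top of the Control range. The difference was -0.51 (SE 0.25, exact permutation p = 0.0785). Bub1, a checkpoint kinase at the kinetochore, spanned 8.62, 15.9 and 21.2 RPKM in Control mice and 4.31, 11.1 and 16.99 in HLU mice. HLU 7, HLU 1 and HLU 6 lay below every Control mouse and Control 1 was highest. Its difference, the lowest of the 46, was -0.54 (SE 0.27, exact permutation p = 0.0836). Aurka (Aurora A), which matures the spindle poles, spanned 11.98, 19.4 and 32.2 RPKM in Control mice and 7.05, 12.8 and 26.2 in HLU mice. Control 7 was highest and HLU 7 and HLU 4 lay below every Control mouse. The log2 fold change was -0.52 (SE 0.28, exact permutation p = 0.102). Plk1 (Polo-like kinase 1), which acts from mitotic entry to division of the cell, spanned 11.98, 18.3 and 31.2 RPKM in Control mice and 7.58, 13.3 and 29.0 in HLU mice. HLU 3 and Control 7 were high together, HLU 4 and HLU 7 lay below every Control mouse, and the difference was -0.44 (SE 0.26, exact permutation p = 0.131), which turned to 0.0011 with the marrow covariates.

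Of the 4 genes that control anaphase, 3 had a negative log2 fold change. The most abundant was Mad2l1 (Mad2) by RPKM as deposited, but Cdc20 on GENCODE lengths (30.2 against 10.1). Mad2l1, which holds the anaphase-promoting complex inactive until kinetochores are attached, spanned 12.2, 25.3 and 32.5 RPKM in Control mice and 6.94, 18.7 and 25.6 in HLU mice. HLU 7 and HLU 1 lay below every Control mouse and Control 1 was highest, for a difference of -0.46 (SE 0.27, exact permutation p = 0.133). Pttg1 (securin), which blocks the protease separase, spanned 9.04, 11.2 and 13.1 RPKM in Control mice and 9.07, 10.7 and 14.5 in HLU mice. HLU 7 and HLU 6, among the lowest mice over the 46 genes, lay above every Control mouse, and the other HLU mice lay within the Control range. Its difference was 0.022 (SE 0.12, exact permutation p = 0.840), negative with the osteocyte level as a covariate. Cdc20, which activates the complex, and Espl1, separase itself, had log2 fold changes of -0.46 and -0.35, both positive with the marrow covariates.

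The 8 spindle and kinetochore genes had log2 fold changes from -0.48 (Birc5) to -0.36 (Kif20a). Kif11 (Eg5), the motor that pushes spindle poles apart, was the most abundant by RPKM as deposited, but on GENCODE lengths its mean of 28.9 lay under 52.1 for Birc5, 51.4 for Nusap1 and 43.3 for Tpx2. It had 29.4, 52.0 and 80.7 RPKM in Control mice and 15.0, 36.4 and 68.9 in HLU mice. Control 1 and HLU 2 were the highest of their groups, HLU 7, HLU 1 and HLU 6 lay below every Control mouse, and the rest overlapped. The difference was -0.41 (SE 0.29, exact permutation p = 0.211). Mki67 (Ki-67), which coats mitotic chromosomes and marks dividing cells, was the most abundant of all 46 genes. It spanned 100.3, 184 and 294 RPKM in Control mice and 52.5, 120.2 and 239 in HLU mice. Control 3 and Control 5 lay below the HLU median, HLU 7 and HLU 6 lay below every Control mouse, and the difference was -0.47 (SE 0.30, exact permutation p = 0.163). Foxm1, a factor that turns on mitotic genes, was the more abundant of 2 mitotic transcription factors, at 6.64, 8.03 and 13.5 RPKM in Control mice and 3.89, 6.51 and 11.0 in HLU mice. Control 7 stood apart at the top, and HLU 7, HLU 4, HLU 1 and HLU 6 lay below every Control mouse. On the log2 scale the difference was -0.39 (SE 0.21, exact permutation p = 0.101).

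Promoters are shown as a description, and whether their letters bear on how the genes varied between mice was not tested. RefSeq promoter windows of 300 bases (build GRCm38.p6, from before to just after the start) matched 35 of the 46 genes, and a gene was counted where any of its windows held the letters. The letters searched on both strands were TTTGAA, found in cell cycle genes homology regions, CCAAT, the box bound by NF-Y, and TTTGGCGC and TTTCGCGC, both E2F sites. TTTGAA lay in 13 of 21 mitotic genes with a window, or 61.9%, in 2 of the 14 other genes, and in 20.2% of all 27025 genes with a window. CCAAT lay in 16 of the mitotic genes, in 8 of the others, and in 41.1% of all genes. Both lay in 13 mitotic genes and in 7.97% of all genes (6.95% of all windows). TTTGGCGC was found in Cdc25a and E2f2 and in 0.585% of all genes, and TTTCGCGC in Cdk1 and Rbl1 and in 0.374% of all genes. A match describes the letters in the window and does not show binding.

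The windows printed belong to the most abundant genes with both TTTGAA and CCAAT in 4 mitotic groups, and to Ccnd3, the most abundant G1-S cyclin, by RPKM as deposited. Capitals mark the letters searched, on either strand (CCAAT reads ATTGG and TTTGAA reads TTCAAA on the other strand), and sequences run 5′ to 3′ on the gene's strand. They lie, in the order printed, at chr7:135716330-135716629 (minus strand), chr9:70421505-70421804 (minus strand), chr19:37376132-37376431 (plus strand), chr4:118437294-118437593 (minus strand) and chr17:47504801-47505100 (plus strand). The Ccnd3 window shown holds none of the letters, and a further window of that gene holds CCAAT.
Mki67: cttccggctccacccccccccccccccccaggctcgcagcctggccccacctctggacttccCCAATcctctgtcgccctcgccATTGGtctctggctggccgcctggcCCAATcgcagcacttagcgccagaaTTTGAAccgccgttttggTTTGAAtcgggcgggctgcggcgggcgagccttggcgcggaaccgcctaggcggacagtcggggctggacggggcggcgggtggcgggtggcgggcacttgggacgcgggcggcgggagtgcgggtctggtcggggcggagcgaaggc
Ccnb2: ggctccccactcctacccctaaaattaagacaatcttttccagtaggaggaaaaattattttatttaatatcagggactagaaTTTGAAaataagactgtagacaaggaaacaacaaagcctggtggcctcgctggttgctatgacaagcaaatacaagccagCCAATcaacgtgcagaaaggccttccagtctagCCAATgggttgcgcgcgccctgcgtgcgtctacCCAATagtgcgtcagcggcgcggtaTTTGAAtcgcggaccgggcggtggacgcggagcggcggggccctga
Kif11: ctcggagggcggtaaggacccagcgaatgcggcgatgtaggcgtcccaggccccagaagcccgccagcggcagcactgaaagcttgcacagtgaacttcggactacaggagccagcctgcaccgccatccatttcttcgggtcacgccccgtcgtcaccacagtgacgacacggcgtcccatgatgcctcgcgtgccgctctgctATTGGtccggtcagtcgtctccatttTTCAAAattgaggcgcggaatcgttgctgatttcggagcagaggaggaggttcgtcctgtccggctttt
Cdc20: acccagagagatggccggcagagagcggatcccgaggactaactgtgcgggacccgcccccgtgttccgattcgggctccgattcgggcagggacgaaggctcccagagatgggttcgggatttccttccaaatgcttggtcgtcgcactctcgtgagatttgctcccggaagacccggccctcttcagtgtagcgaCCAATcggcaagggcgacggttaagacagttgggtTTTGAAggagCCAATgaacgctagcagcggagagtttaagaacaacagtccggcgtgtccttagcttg
Ccnd3: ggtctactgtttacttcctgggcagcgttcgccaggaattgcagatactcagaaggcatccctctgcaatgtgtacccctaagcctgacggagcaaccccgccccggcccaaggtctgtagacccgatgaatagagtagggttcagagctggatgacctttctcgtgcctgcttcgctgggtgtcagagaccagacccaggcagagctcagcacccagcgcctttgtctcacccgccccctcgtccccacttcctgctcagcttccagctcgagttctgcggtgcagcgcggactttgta

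A mitotic gene was then set against a G1-S gene in the same library, since such a difference does not depend on the scaling between libraries. Ccnb1 minus Ccnd1, on the log2 scale, had a lowest, median and highest value of -0.46, 0.50 and 1.35 in Control mice and -1.04, 0.046 and 1.197 in HLU mice. HLU 8 was highest of its group, and under the Control median lay 7 of the HLU mice. The groups differed by -0.42 (SE 0.33, exact permutation p = 0.222, adjusted over the 3 differences 0.564). For Cdk1 minus Cdk4 the values were -0.064, 0.63 and 0.87 and -0.46, 0.47 and 1.02, a difference of -0.19 (SE 0.21, exact permutation p = 0.376, adjusted 0.564). For Plk1 minus Ccnd3 they were -2.17, -1.72 and -0.99 and -2.41, -1.61 and -1.24, a difference of -0.025 (SE 0.22, exact permutation p = 0.908, adjusted 0.908). None of these 3 differences was detectable with 8 mice a group. As a description with no test, the level of the 14 mitotic kinase, spindle and kinetochore genes minus that of the 5 G1-S cyclins had medians of 0.12 in Control and -0.092 in HLU mice.

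Between mice, with the group means removed, most of the genes varied as 1 block. These correlations are descriptions over 16 mice, whose points share a library, its scaling and its base composition. Over the 325 pairs of the 26 genes in the mitotic groups the median r was 0.824, and over the 28 pairs of spindle and kinetochore genes it was 0.954. With Mki67, 36 of the other 45 genes had r above 0.5, against 27.9% of all features. The E-type cyclins went with the mitotic genes, with a median r of 0.875 for Ccne1 and 0.870 for Ccne2. Ccnd1 (median r -0.257, from -0.386 to 0.201) and Ccnd2 (0.260, from -0.459 to 0.430) did not reach an r of 0.5 with any of the 26. Ccnd3 divided the mitotic genes, with a median r of 0.1999 and a range from -0.0991 to 0.900. It had r above 0.5 with 8 of the 26, the highest with Espl1, Mybl2 and Cdc20. Cdk4 did likewise, with a median r of 0.275, a range from -0.0417 to 0.908 and r above 0.5 with 8. Cdk6 had a median r of 0.0987 and at most 0.354. Pttg1 ran against most of the other mitotic genes, with a median r of -0.560 and a range from -0.782 to 0.112.

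Base composition ran alongside the division of the mitotic genes by Ccnd3 and Cdk4, and its part in that division was not tested. A GC axis was computed for each library as the mean centred log2 value of genes whose longest transcript has a GC content of at least 54.8% minus that of genes with at most 43.6%, with the 46 genes left out. It was lowest in HLU 4, Control 4 and Control 1, highest in Control 5 and Control 7, and did not differ detectably between the groups (exact permutation p = 0.990). GC-rich Ccnd3 had r = 0.817 with the axis and Cdk4 r = 0.777, whereas AT-rich Cdkn1b had -0.831 and Rb1 -0.676. Espl1, Mybl2 and Cdc20, the mitotic genes with the highest r with Ccnd3, had 0.625, 0.560 and 0.414. Across the 46 genes, which are not independent replicates, the r with the axis and the GC percent of the longest transcript correlated at 0.828. With the axis as a covariate, an alternative chosen after seeing the data, 6 genes were lower at an unadjusted p under 0.05 with at least a 1.2-fold change (Ccnd3, Cdk4, Rbl1, E2f1, Ccnb1 and Bub1), with 8.16% of all features lower in that fit, and the lowest adjusted p was 0.415.

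**Figure D4:**
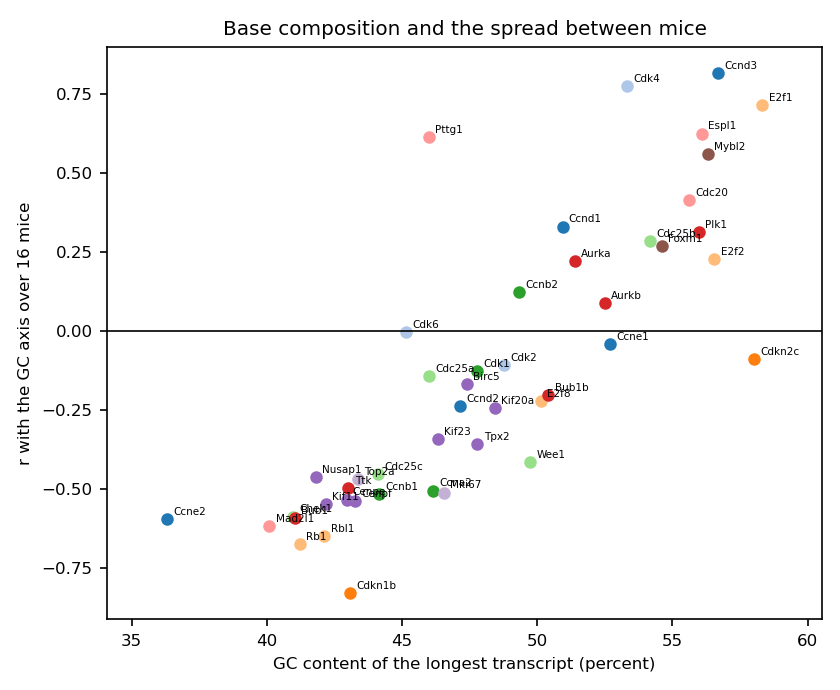
Correlation of each of the 46 genes with the GC axis of the libraries over 16 mice, group means removed (vertical axis, Pearson r), against the GC content of its longest transcript in percent (horizontal axis), colored by role. AT-rich genes lie below 0 and GC-rich genes mostly above it, with r = 0.828 across genes, and Pttg1 lies above the others of its GC content.

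Markers of marrow cells were read beside these genes, because the labelled tissue is flushed bone. Bone markers were present, with all 9 osteocyte genes written found and above the filter (Mepe most abundant, mean 183 RPKM) and likewise all 9 osteoblast genes (Ibsp, 556). So were those of marrow, with 17 genes found once, all above the filter, for the 21 erythroid symbols written (Hbb-b2, 1122), 5 for 10 granulocyte precursor symbols (Chi3l3, 627), 11 for 12 mature neutrophil symbols (S100a8, 10923) and 13 for 14 B precursor symbols (Cd24a, 1107). Some symbols written are other names of 1 gene, which does not account for all those missing, as in the granulocyte precursor list. No marker found was at 0 in all mice. The summed RPKM of the erythroid list had a lowest, median and highest value of 3518, 4268 and 9490 in Control mice and 1927, 2999 and 5126 in HLU mice. For the granulocyte precursor list the sum was 752, 1087 and 1274 in Control mice and 444, 865 and 1437 in HLU mice. Chi3l3 made up 66.9% of that sum in Control and 64.3% in HLU mice. HLU 7, HLU 4 and HLU 1 were the lowest HLU mice in the mean levels of both lists, as they were over the 46 genes. The mature neutrophil sum was 18212, 31133 and 38817 in Control mice and 12988, 25852 and 45852 in HLU mice. The symbols written for that list include the granule genes Ltf, Camp, Ngp, Lcn2 and Mmp8. Its name is therefore a label and does not fix the stage of the cells. The B precursor sum was 748, 1419 and 1825 in Control mice and 420.2, 909 and 1635 in HLU mice. Cd24a, also known from erythroid and granulocytic cells, made up 92.9% of it in Control and 92.8% in HLU mice. The osteocyte sum was 191, 337 and 622 in Control mice and 278, 536 and 638 in HLU mice. Its median was higher in the HLU group, but on the log2 scale the groups did not differ detectably (exact permutation p = 0.107, adjusted over the lists 0.226). Mepe made up 37.6% of it in Control and 45.7% in HLU mice.

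The calls in these lists stand beside 4.76% lower and 1.11% higher over all features, for RPKM as deposited. The levels and sums of 12 lists were tested, and with adjustment over the lists 0 levels and 0 sums passed 0.05. As mean log2 levels, with unadjusted p, the erythroid list differed between the groups by -0.53 (exact permutation p = 0.0777) and the granulocyte precursor list by -0.18 (exact permutation p = 0.410). The difference was -0.14 (exact permutation p = 0.5257) for mature neutrophil, -0.36 (exact permutation p = 0.178) for B precursor and 0.33 (exact permutation p = 0.213) for osteocyte genes. Of these lists, 4 of 17 erythroid (23.5%), 1 of 13 B precursor (7.69%) and 0 of 5 granulocyte precursor and 0 of 11 mature neutrophil genes were called lower, and 1 of 9 osteocyte genes was called higher. The megakaryocyte list (Ppbp most abundant, 895 RPKM, 6 of 7 symbols found) had 4 of 6 genes (66.7%) called lower and differed by -0.58 (exact permutation p = 0.0311). Its summed RPKM was 959, 1373 and 1608 in Control mice and 415, 788 and 1383 in HLU mice, of which Ppbp made up 82.2% and 83.2%. On the log2 scale 3 of the sums had an unadjusted exact permutation p under 0.05, at 0.00932 for the megakaryocyte (adjusted 0.112), 0.0365 for the erythroid (adjusted 0.183) and 0.0458 for the adipocyte list (adjusted 0.183), the last with higher values in HLU mice. Fabp4 made up 84.4% and 85.4% of the adipocyte sum. T lymphocyte genes (Trac, 10.9 RPKM, 7 of 8 symbols found) differed by -0.43 (exact permutation p = 0.136) with 1 of 7 (14.3%) called lower. Osteoblast genes differed by -0.0064 (exact permutation p = 0.981), osteoclast genes (Ctsk, 746 RPKM) by -0.015 (exact permutation p = 0.940) and chondrocyte genes (Col2a1, 10.4 RPKM) by -0.15 (exact permutation p = 0.701), with 0 called by limma and 0 at an unadjusted p under 0.05. Above the filter were 6 of 7 osteoclast genes (not Calcr), 3 of 6 chondrocyte genes (not Col9a1, Col10a1 and Matn1) and 5 of 6 adipocyte genes (not Lep). Adipocyte genes (Fabp4, 527 RPKM) differed by 0.38 (exact permutation p = 0.266) with 1 of 5 called higher, and endothelial genes (Pecam1, 23.4 RPKM) by 0.11 (exact permutation p = 0.155) with 0 of 5 called. Skeletal muscle genes were not analysed here. The part of these cells in the differences of the cell cycle genes was not tested.

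Relations of 4 genes to 5 marker lists were tested across the 16 mice, 20 relations in all, with the group means removed and adjustment over the 20. Mki67 and the mature neutrophil level had r = 0.922 (permutation p = 1e-05, adjusted 0.0002) and rho = 0.915 (permutation p = 2e-05, adjusted 0.0004), where 1e-05 is the smallest p that 100000 permutations can give. Without the 2 mice farthest from the median r was 0.876, and it was 0.911 in Control and 0.947 in HLU mice alone. With the granulocyte precursor level Mki67 had r = 0.916 (permutation p = 3e-05, adjusted 0.0003) and rho = 0.888 (permutation p = 6e-05, adjusted 0.0006), and r = 0.854 without the 2 farthest mice, 0.824 in Control and 0.968 in HLU mice. With B precursors it had r = 0.649 (permutation p = 0.0114, adjusted 0.0286) and rho = 0.632 (permutation p = 0.0150, adjusted 0.0376), but r = 0.415 without the 2 farthest mice, and it was 0.279 in Control and 0.868 in HLU mice.

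Osteocyte markers ran the other way. Mki67 and the osteocyte level had r = -0.612 (permutation p = 0.0114, adjusted 0.0286) and rho = -0.688 (permutation p = 0.00391, adjusted 0.0195), and r = -0.645 without the 2 farthest mice, -0.659 in Control and -0.624 in HLU mice. Control 1, Control 2, Control 6 and HLU 2 had high Mki67 and low osteocyte markers for their groups. Ccnd1, in contrast, varied in the same direction as osteocyte markers, with r = 0.688 (permutation p = 0.00683, adjusted 0.0286) and rho = 0.715 (permutation p = 0.00552, adjusted 0.0221). That r was 0.551 without the 2 farthest mice, 0.874 in Control mice and 0.363 in HLU mice.

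Ccnd3 went with the red cell list. It had r = 0.773 (permutation p = 6e-05, adjusted 0.0004) and rho = 0.806 (permutation p = 0.00057, adjusted 0.00380), and r = 0.703 without the 2 farthest mice. Within groups r was 0.869 in Control and 0.787 in HLU mice. Ccnd3 also had r = 0.817 with the GC axis, which itself had r = 0.306 with the erythroid level. As a description, its r with the megakaryocyte level was 0.672. With the GC axis removed, Ccnd3 also passed with the granulocyte precursor and mature neutrophil levels, as given below. Ccnb1 and granulocyte precursors had r = 0.680 (permutation p = 0.00908, adjusted 0.0286) and rho = 0.700 (permutation p = 0.00739, adjusted 0.0246), with r = 0.557 without the 2 farthest mice, 0.436 in Control and 0.783 in HLU mice. With the mature neutrophil level Ccnb1 had r = 0.688 (permutation p = 0.00864, adjusted 0.0286) and rho = 0.644 (permutation p = 0.0135, adjusted 0.0376). That r was 0.603 without the 2 farthest mice, 0.638 in Control and 0.712 in HLU mice. The other 12 relations had an adjusted p over 0.05 by r, among them Mki67 with erythroid genes (r = 0.573, permutation p = 0.0330, adjusted 0.0734), where r was 0.0217 in Control and 0.855 in HLU mice. With the GC axis removed as well, an alternative chosen after seeing the data, that relation had r = 0.893.

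**Figure D5:**
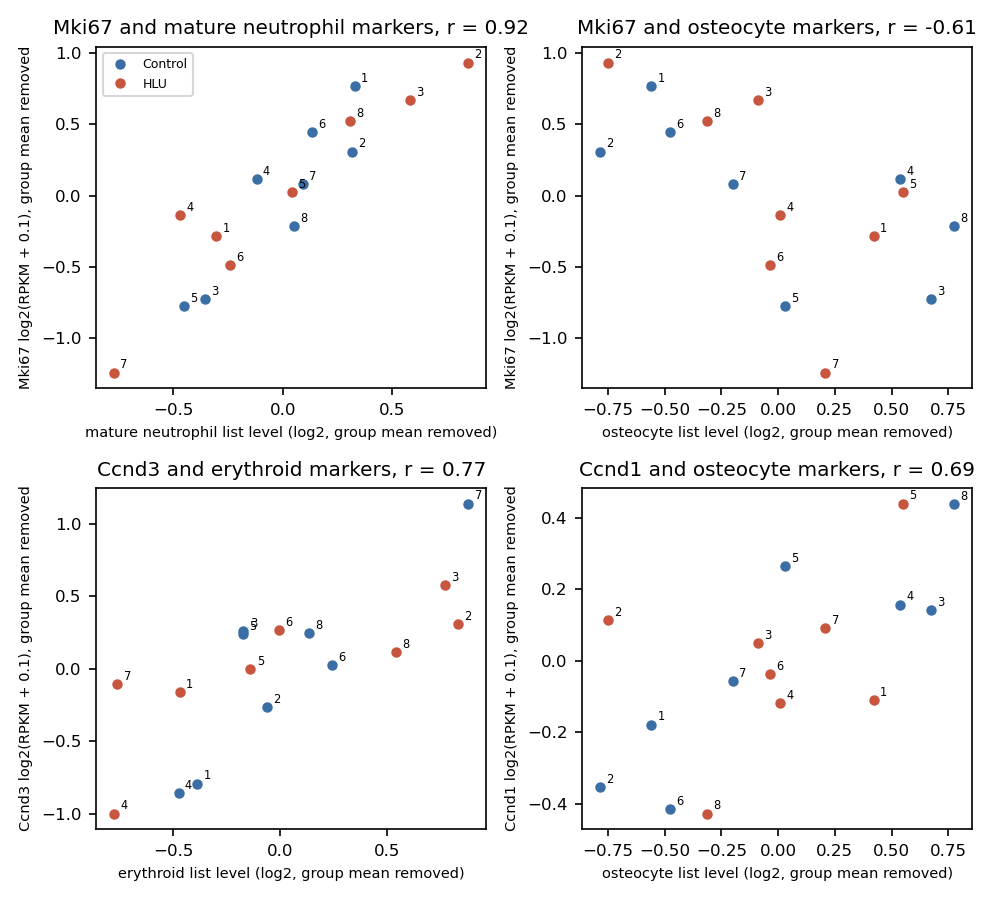
Log2(RPKM + 0.1) of Mki67, Ccnd3 and Ccnd1 (vertical axes) against marker list levels (horizontal axes, log2) in 16 mice, with group means removed and mouse numbers beside the points. Mki67 runs with the mature neutrophil list, whose name does not fix the stage of the cells, and against osteocyte markers. Ccnd3 runs with erythroid markers and Ccnd1 with osteocyte markers.

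For all 46 genes the same correlations are given as a description. With the granulocyte precursor level the median r was 0.846, against 0.0977 over all features. With mature neutrophil genes it was 0.840 against 0.120, and with erythroid genes 0.704 against 0.181. Genes differed in which list they followed most closely. Cdc25b had r = 0.980 with erythroid and 0.746 with granulocyte precursor genes, and Kif11 had 0.563 and 0.899. Their base composition differed too, with 54.2% GC for Cdc25b and 42.2% for Kif11. With the GC axis they had r = 0.285 and -0.549. The axis itself had r = 0.306 with the erythroid level and -0.245 with the granulocyte precursor level. The part of base composition in this contrast was not tested. With osteocyte genes 44 of 46 had a negative r, with a median of -0.506 against 0.0127 over all features, and the exceptions were Ccnd1 and Pttg1. With osteoblast genes 37 of 46 had a negative r, with a median of -0.433 against 0.0512 over all features. With the marrow covariates 7 genes were lower at an unadjusted p under 0.05 with at least a 1.2-fold change (Ccne2, Cdk6, Ccna2, Chek1, Bub1, Cenpe and Top2a), with 3.65% of all features lower in that fit.

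Other cell cycle genes showed a like sign. Of 69 further mitotic genes 8 were lower at an unadjusted p under 0.05 and 0 higher, or 11.6% against the 4.76% of all features for RPKM as deposited, with 0 at the adjusted threshold and a median log2 fold change of -0.39. The 4 with the lowest limma p were Spc24, Cks2, Nek2 and Stmn1. Cks2, a small subunit that binds Cdk1, spanned 18.0, 28.2 and 48.0 RPKM in Control mice and 11.2, 19.0 and 30.3 in HLU mice, a log2 fold change of -0.62 (SE 0.21, exact permutation p = 0.0149). Spc24, a kinetochore protein, spanned 8.92, 11.4 and 17.9 RPKM in Control mice and 4.95, 7.80 and 11.4 in HLU mice, a difference of -0.57 (SE 0.19, exact permutation p = 0.0140). Nek2, a centrosome kinase, and Stmn1, which destabilizes microtubules, had log2 fold changes of -0.55 and -0.49. The groups overlapped for all 4.

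Of 35 further G1-S and checkpoint genes above the filter, 3 were lower and 0 higher by the same rule, or 8.57% lower against 4.76% of all features, with 0 at the adjusted threshold and a median of -0.16. Myc, a growth factor response gene that drives G1 progression, spanned 3.46, 4.32 and 5.99 RPKM in Control mice and 2.13, 3.05 and 4.62 in HLU mice. The difference in log2 was -0.49 (SE 0.16, exact permutation p = 0.00730), with a limma adjusted p of 0.744. Btg2, which restrains proliferation, and Fbxo5 (Emi1), an inhibitor of the anaphase-promoting complex, had differences of -0.47 and -0.53. Cdkn1c (p57), an inhibitor of cyclin-dependent kinases, went the other way, with 1.99, 4.25 and 6.30 RPKM in Control mice and 4.24, 5.14 and 8.63 in HLU mice and a difference of 0.48 (SE 0.23, exact permutation p = 0.0667), which did not pass.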

How the data were processed

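RNA of 16 femoral cortical bone samples was sequenced by the authors, aligned with TopHat2 to mm9 (submitters' processing notes), and deposited per mouse. The deposited values were taken as RPKM, a unit that neither the labels nor the methods used here name. They are whole reads once multiplied by a gene length and a library total (tolerance 0.005 reads, 100% of features kept). The authors compared groups with DESeq2, and a count test does not suit RPKM, so limma 3.58.1 (R 4.3.3) was used on log2(RPKM + 0.1) for 16973 features (mean RPKM 0.5 or more), with variances moderated along a trend and Benjamini-Hochberg adjustment. A fold change on this scale understates that of low genes. Two-sided exact permutation tests covered all 12870 splits of the mice (smallest p 0.000155), and relations 100000 permutations within groups, in Python 3.11.15 (numpy 2.4.6, scipy 1.17.1, pandas 2.3.3, numba 0.67.0, matplotlib 3.10.9). Alternatives were other pseudocounts and filters, no variance trend, median-of-ratios and quantile scaling, voom on recovered reads, marker levels or the GC axis as covariates, a replicate block, and leaving out 1 mouse or the 2 smallest libraries. The limma step and the read recovery were tested on simulated data. No 2 mice of a group agreed within sampling noise. Values are given for the most abundant gene (RPKM as deposited) of each of 11 role groups, genes past the threshold, those in the differences and relations, the 2 highest and 2 lowest fold changes, the 4 lowest p of each further list, the gene with the lowest limma p, and the most abundant gene of each of 12 marker lists. Members and lists were chosen with earlier results of these data known. Which mice shared a sequencing lane is not given in the sources used here. Promoter sequences are from RefSeq (GRCm38.p6). Genes without an entry were Ccnd1, Ccnd2, Ccne2, Rb1, Ccna2, Cdc25c, Wee1, Aurkb, Kif20a, Tpx2 and Foxm1. Transcript GC content and exon overlaps are from GENCODE M21.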

Additional observations from a re-analysis of the deposited data

Results flagged for a closer look

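Among the values examined here, Control 7 stood far above the other 7 Control mice in 3 genes. Its RPKM was 135 for Ccnd3, where the next mouse had 73.6. For Cdc25b it was 39.3 against 28.3, and for Foxm1 13.5 against 9.31. HLU 5 had by far the fewest reads of the HLU group, 7838277 against 15212253 for the next. In all, 124 groups of 8 values were examined, of which chance flags about 1 in 20.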

How the results depend on the processing

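Of the 46 genes, 0 were higher and 0 passed the adjusted threshold in every alternative run. Genes called lower numbered 7 with marrow covariates (3.65% of all features lower in that fit) and 6 with the GC axis as covariate (8.16%). They numbered 3 with voom (5.39%) and 1 without the variance trend (4.74%). Leaving out 1 mouse gave 0 to 14, with 2.77% to 8.16% of all features lower. The median of the 46 kept its sign, at -0.24 with the osteocyte and -0.12 with the marrow covariates. It ran from -0.52 to -0.28 leaving out 1 mouse. With the replicate number as a block 1 gene (Cdk6) was lower, with 4.95% of all features lower in that fit. The numbers do not pair the mice, however. Same-numbered mice correlated at -0.255 to 0.666, and only 2 of 8 Control mice correlated best with their own number.

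Over all features the split was 381 higher and 394 lower with median-of-ratios scaling (49.2% higher, against 18.9% as deposited), 460 higher and 364 lower with quantile normalization (55.8%), 397 higher and 620 lower with marrow covariates, 260 higher and 1385 lower with the GC axis and 391 higher and 1048 lower with no filter. Higher calls were 106 at a minimum mean of 2 RPKM, 100 with the osteocyte level as covariate (chosen after seeing the data, like the GC axis) and 108 without the 2 smallest libraries. Leaving out 1 mouse gave 117 to 363 higher and 471 to 1385 lower. At the adjusted threshold 1 feature passed with no filter, 1 without the variance trend, and 0 to 1 leaving out 1 mouse.

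With marrow covariates the sign turned for 10 of the 46 genes, among them Ccnd3 (0.10), Cdk2 (0.018), E2f2 (0.043), Cdc25b (0.14) and Plk1 (0.0011), and also E2f1, Aurkb, Cdc20, Espl1 and Mybl2. Ccnd1 turned with median-of-ratios (0.017) and quantile scaling (0.041), and Pttg1 with the osteocyte covariate (-0.023) and leaving out 1 mouse (-0.033 to 0.064). Leaving out 1 mouse, Plk1 minus Ccnd3 ranged from -0.096 to 0.077. The r of Ccnd3 with B precursors turned to -0.132 with median-of-ratios scaling, where Ccnd1 with granulocyte precursors passed (r = -0.586). With the GC axis removed 4 further relations passed: Mki67 with erythroid genes (r = 0.893), Ccnb1 with erythroid genes (0.880), and Ccnd3 with granulocyte precursors (0.728) and mature neutrophils (0.749). The causes were not tested. Of 579 values of the 20 named genes under alternatives, 523 kept their sign and side of the threshold. Cdk6, named after its values were seen, was lower in 7 of its 28 alternatives.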
